A study of Mus musculus with 4 samples.

Results

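The voltage-gated sodium channel genes Scn1a, Scn3a, Scn8a and Scn9a, which encode alpha subunits, and Scn2b, Scn3b and Scn4b, which encode beta subunits, were followed through the brain transcriptome of the Ids-ko mouse, a model of mucopolysaccharidosis type II (Hunter syndrome). The members were chosen by name and matched through their Entrez numbers, and all 7 were among the 12700 genes of the count table. An alpha subunit is the large membrane protein that forms the sodium pore, opens on depolarisation and closes again through its own inactivation gate, and it carries the upstroke of the action potential. Beta subunits are small proteins with an extracellular immunoglobulin domain that associate with alpha subunits, shift their gating, bring them to the cell surface and mediate cell adhesion. In the adult brain these channels are concentrated at the axon initial segment and at the nodes of Ranvier, and which alpha subunit a neuron uses differs between excitatory and inhibitory cells and between brain areas.

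Poly(A) RNA came from C57BL/6 mice aged 9 months, either Ids-/- (Ids-ko, H) or wild type (WT), the wild type mice being littermates. Ids encodes iduronate 2-sulfatase, the lysosomal enzyme that is deficient in this disease, and its disruption is carried by every cell of the knock-out animal. The dissections were the cerebral cortex (Cx) and an area comprising midbrain, diencephalon and hippocampus (M), into which the striatum was also taken, and each was sequenced as pooled RNA of several mice. Both areas were taken from the same brains, so the Cx and M libraries of a genotype are not independent of each other. The 4 conditions CxH, CxWT, MH and MWT were thus 1 library each, without replicates. Reads on genes numbered between 16380080 in MWT and 23475080 in CxH, and 3 reads, taken as the floor, corresponded to between 0.0779 and 0.104 reads per 1000000 aligned reads (RPM). Each ± below is the standard error from counting and each interval in parentheses a 95% interval from counting, so neither covers variation between mice, dissections or library preparations. Following the rule of the study, a gene was called up- or down-regulated between 2 libraries if its log2 ratio reached 0.7 in either direction and a Poisson likelihood ratio test passed at a p-value of 0.05. This test compares libraries, and says nothing of how mice of 1 condition vary.

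The labels were first set against the disrupted gene and against area markers. Ids had 135 RPM in CxH against 354 in CxWT, and 368 RPM in the library labelled MH against 155 in the library labelled MWT, with a log2 ratio of -1.39 ± 0.024 in CxH vs. CxWT and 1.24 ± 0.025 in MH vs. MWT. In M the library with the knock-out label therefore held more Ids reads than its control. The summed RPM of 10 cortical excitatory neuron markers was 2340 in CxH against 326 in CxWT, and 2057 in MH against 244 in MWT. The summed RPM of 11 thalamus, midbrain and hypothalamus markers found in the table was 22.3, 449, 33.5 and 397 in the same order, and of these En1, a midbrain gene, had 1 read in CxH and 0 in MH. CxWT was thus high in markers of the M area and MH low in them, against their area labels. Within the pairs alike in these 2 lists, Ids was lower in CxH than in MH (log2 ratio -1.44) and higher in CxWT than in MWT (1.19). An exchange of CxWT and MH alone would bring these 2 lists and the area labels together, but would leave Ids higher in the knock-out than in the wild type library of M. Reading MH as wild type cortex, CxWT as wild type M and MWT as knock-out M would match both lists and Ids. The striatal markers given further on match neither reading, since the striatum was dissected with M and they were higher in CxH and MH than in CxWT and MWT, and the files do not settle which labels hold. If the areas were those of the 2 lists, CxH vs. CxWT and MH vs. MWT would each set different areas against each other, and CxH vs. MH and CxWT vs. MWT would be the comparisons of genotypes within an area. Every ratio below is subject to this limit, and the libraries are named by their labels only. The part of these differences in area content in the channel results was not tested, and each ratio below stands beside them. Because the tissue was sequenced in bulk, fewer cells of a type and less RNA per cell cannot be told apart.

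Scn1a, which encodes Nav1.1, the channel of many fast-spiking inhibitory neurons and the gene most often mutated in Dravet epilepsy, lies on the minus strand at chr2:66108838-66278897 (mm9), and Scn9a (Nav1.7, best known from peripheral sensory neurons) lies next to it at chr2:66318137-66473009, 39.2 kb away. Scn3a (Nav1.3, most abundant in the developing brain) is at chr2:65295175-65405684 in the same cluster, with Scn2a between it and Scn1a. Scn8a (Nav1.6, the main channel of adult initial segments and nodes) stands apart at chr15:100785829-100876360. Over the whole coding sequence, G or C filled 53.1% of the third codon places in Scn1a, 54.0% in Scn9a, 59.7% in Scn3a and 73.9% in Scn8a. Among the alpha pairs, Scn1a and Scn3a shared the most aligned coding bases, 83.9%, and Scn8a and Scn9a the fewest, 76.7%. As a measure of how far reads could be confused between paralogs, 1137 of the 8337 windows of 50 bases in the longest Scn1a transcript, 1430 of 9511 in Scn3a, 917 of 9791 in Scn9a and 144 of 10895 in Scn8a matched another sodium channel transcript with at most 2 mismatches. Reads from such windows could have been lost or assigned to a paralog, so the levels of Scn1a, Scn3a and Scn9a are less certain than that of Scn8a. The annotation also holds a gene on the opposite strand whose exons overlap those of Scn9a, Gm13629, and whether the counting used strand is not given in the sources used here.

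The beta subunit genes lie on chromosome 9. Scn2b, whose product is bound to the alpha subunit by a disulfide bridge, is at chr9:44925959-44938153, and Scn4b, whose product is bound in the same way and is abundant in striatal neurons, at chr9:44946520-44962235, only 8.37 kb further on the same strand. Scn3b, whose product associates without such a bridge, is at chr9:40076801-40099203. The last 60 coding bases before the stop codon, which encode the end of the intracellular tail, are given below to show the base composition of these genes, and capitals mark a G or C in the third codon place.
Scn2b: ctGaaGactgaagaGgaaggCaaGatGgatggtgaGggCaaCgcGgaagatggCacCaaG
Scn3b: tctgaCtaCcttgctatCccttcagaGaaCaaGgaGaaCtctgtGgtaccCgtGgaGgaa
Scn4b: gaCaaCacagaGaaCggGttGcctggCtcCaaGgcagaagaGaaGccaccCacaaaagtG
They were read on the plus strand at chr9:44934325-44934384 for Scn2b, chr9:40095960-40096019 for Scn3b and chr9:44958525-44958584 for Scn4b. G or C closed 13, 12 and 13 of the 20 codons in Scn2b, Scn3b and Scn4b. Over the whole coding sequence the share was 71.8% in Scn2b, 64.4% in Scn3b and 72.5% in Scn4b. No window of 50 bases in the longest transcripts of Scn2b, Scn3b and Scn4b matched another sodium channel transcript. Within this family, sequence shared at this length was thus found among the alpha members and not among the beta members.

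Scn1a had 3770 reads in CxH against 7297 in CxWT, and 4850 in MH against 5637 in MWT. In RPM these were 97.9 (94.8 to 101), 217 (212 to 222), 130 (126 to 133.5) and 195 (190 to 199.9). The library labelled CxH was lowest, MH next, and both libraries labelled WT were higher, without overlap of the counting intervals. The log2 ratio was -1.15 ± 0.029 in CxH vs. CxWT, a 2.22-fold difference that was called down-regulated, and -0.59 ± 0.028 in MH vs. MWT, which stayed within the threshold of 0.7.

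Scn9a was the least abundant member, with 716 reads in CxH against 1347 in CxWT and 842 in MH against 1122 in MWT. Its RPM values were 18.6 (17.3 to 20.01), 40.1 (38.0 to 42.3), 22.5 (21.0 to 24.1) and 38.8 (36.5 to 41.1). As for Scn1a, CxH and MH were the low libraries, while the intervals of CxWT and MWT overlapped. Scn9a was down-regulated in CxH vs. CxWT at a log2 ratio of -1.11 ± 0.067 and in MH vs. MWT at -0.78 ± 0.066, the only alpha member called in both comparisons.

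Scn3a had 41.9 RPM (39.9 to 44.0) in CxH against 57.7 (55.1 to 60.3) in CxWT, and 53.1 (50.8 to 55.5) in MH against 53.7 (51.1 to 56.4) in MWT. Only CxH stood below the rest, and the intervals of the other 3 libraries overlapped. Its log2 ratio was -0.46 ± 0.049 in CxH vs. CxWT and -0.017 ± 0.049 in MH vs. MWT, and neither was called.

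Scn8a was the alpha member with ratios above 0 in both comparisons. It had 8475 reads in CxH against 5974 in CxWT, and 8790 in MH against 4044 in MWT, or 220 RPM (216 to 225), 178 (173 to 182), 235 (230.4 to 240.2) and 140 (135 to 144). The libraries labelled H were the high ones in both areas, without overlap of the intervals. The log2 ratio was 0.31 ± 0.024 in CxH vs. CxWT, which was not called, and 0.75 ± 0.027 in MH vs. MWT, which was called up-regulated.

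Scn4b showed the largest beta difference. It had 8700 reads in CxH against 4176 in CxWT, and 6266 in MH against 2974 in MWT, or 226 RPM (221 to 231), 124 (120.5 to 128), 168 (164 to 172) and 103 (99.1 to 106.5). Both libraries labelled H were above both labelled WT, and no intervals overlapped. Scn4b was called up-regulated in both comparisons, at 0.86 ± 0.027 in CxH vs. CxWT and, close to the threshold, at 0.71 ± 0.032 in MH vs. MWT. With scaling by the column totals of the counts in place of aligned reads, Scn4b stood at 0.65 and Scn8a at 0.69 in MH vs. MWT, and neither was called.

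Scn2b and Scn3b were nearly level. Scn2b had 204 RPM (199 to 208) in CxH against 201 (196 to 206) in CxWT, and 177 (173 to 182) in MH against 174 (169 to 178) in MWT, so that its intervals overlapped within each area and the log2 ratios were 0.021 ± 0.024 and 0.030 ± 0.027 in Cx and M. Scn3b had 115 RPM (111 to 118), 110 (106.5 to 114), 129 (125 to 132) and 137 (133 to 142) in the same order, at a log2 ratio of 0.059 ± 0.032 in Cx and one of -0.095 ± 0.031 in M. Neither gene was called in any pair of libraries. Over all 4 libraries the highest level exceeded the lowest by 1.17-fold for Scn2b and 1.25-fold for Scn3b, against 2.22-fold for Scn1a, 2.20-fold for Scn4b and 2.15-fold for Scn9a. Scn8a, at 1.68-fold, and Scn3a, at 1.38-fold, lay between.

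**Figure D1:**
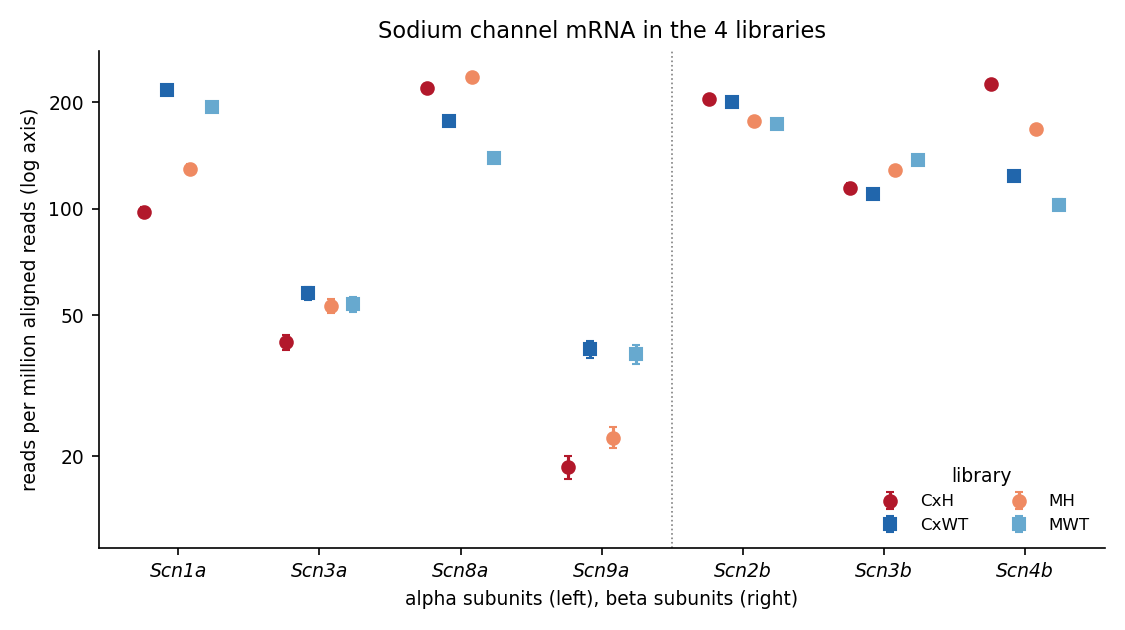
RPM (log axis) of the 4 alpha and 3 beta subunit genes in the libraries CxH, CxWT, MH and MWT, with 95% exact Poisson intervals from counting. Scn1a and Scn9a were lowest in CxH and MH, Scn8a and Scn4b were highest in these libraries, and Scn2b stayed between 174 and 204 in all 4.

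In all, 1 member was called up-regulated and 2 down-regulated in CxH vs. CxWT, where 9.46% of all 12700 genes were called up-regulated and 11.5% down-regulated. In MH vs. MWT 2 members were called up-regulated and 1 down-regulated, against 12.3% and 12.7% of all genes. Scn9a and Scn4b were the members called in both comparisons, each in the same direction. The comparisons in Cx and in M have no library in common, but they come from the same brains. Scn1a lay at percentile 4.21 of all log2 ratios in CxH vs. CxWT and Scn9a at 4.56, while Scn4b lay at 93.1. In MH vs. MWT the corresponding percentiles were 17.3, 10.4 and 87.7. The Cx ratio minus the M ratio was negative for the alpha members, from -0.56 ± 0.040 for Scn1a to -0.32 ± 0.094 for Scn9a, and was 0.16 ± 0.042 for Scn4b, 0.15 ± 0.045 for Scn3b and -0.0093 ± 0.036 for Scn2b. With ratios corrected for the GC content and length of the transcripts, described below, it was -0.37 for Scn1a, -0.10 for Scn9a, 0.35 for Scn4b, 0.22 for Scn3b and 0.088 for Scn2b. These errors come from counting, and with 1 library per condition a difference between the areas was not tested.

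**Figure D2:**
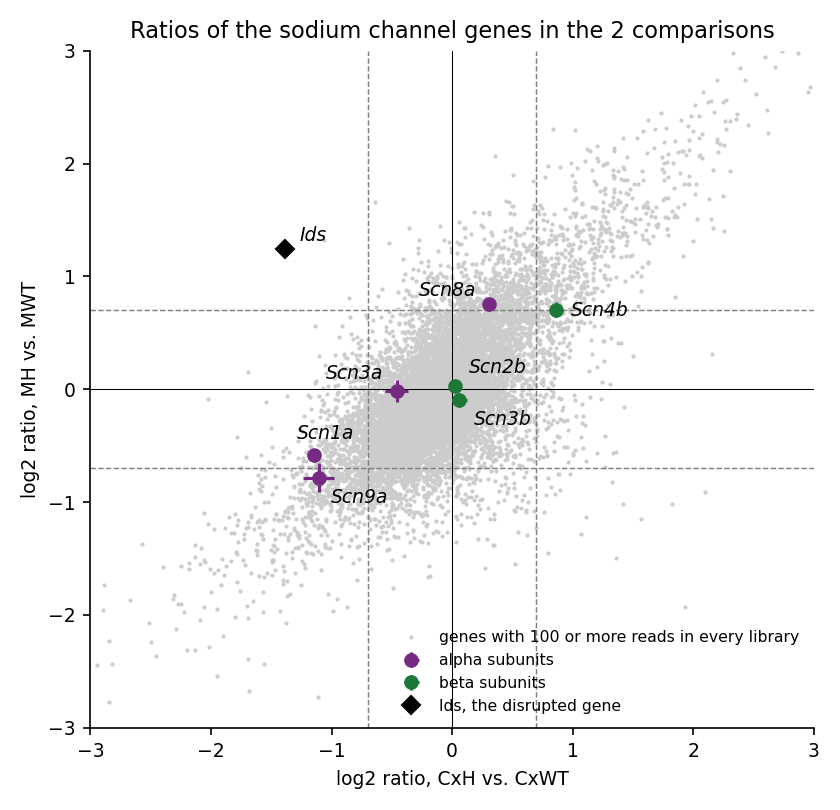
Log2 ratio in CxH vs. CxWT (horizontal) against MH vs. MWT (vertical) for the 4 alpha and 3 beta subunit genes and Ids, with bars for the 95% counting interval, over grey points for the genes that had 100 reads or more in each library. Of 11010 such genes, 20 lie outside the axes. Dashed lines mark the threshold of 0.7. Scn1a and Scn9a lie to the lower left, Scn4b and Scn8a to the upper right, Scn2b and Scn3b at the centre, and Ids, at -1.39 and 1.24, apart from them.

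When alpha subunits were set against beta subunits, the median log2 ratio in CxH vs. CxWT was -0.78 for the 4 alpha genes and 0.059 for the 3 beta genes, against -0.093 for all genes. In MH vs. MWT the medians were -0.30 for alpha and 0.030 for beta, against -0.066 for all genes. The alpha median covers members that differ in direction, since Scn8a was above 0 in both comparisons, and the beta median is that of nearly level genes and leaves out the size of the Scn4b ratio. The members farthest from 0 were Scn1a and Scn9a among the alpha genes and Scn4b among the beta genes in Cx, and in M Scn8a stood as far from 0 as Scn9a, on the other side.

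Reads per kilobase of the longest coding transcript were then compared within each library, which needs no library total. The alpha members summed to 0.329 of the beta members (0.322 to 0.336) in CxH against 0.558 (0.546 to 0.571) in CxWT, and to 0.442 (0.433 to 0.452) in MH against 0.510 (0.497 to 0.523) in MWT. Both libraries labelled H were below both labelled WT, and the difference was larger between the Cx libraries. The correction for GC and length described below was not applied to this ratio. Scn1a, Scn3a and Scn9a had lower GC than every beta member. For Scn1a against Scn4b alone the ratio was 0.255, 1.03, 0.456 and 1.12 in the same order. Per length of the longest transcript these genes were thus at near parity in the libraries labelled WT. The merged exons of Scn1a hold 11079 bases against 8386 in its longest transcript, while Scn4b has 4940 in both. With the merged exons this ratio would be lower.

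Among the alpha members the leading gene differed between libraries. Scn1a made up 49.6% of the reads per kilobase of these members in CxWT and 51.0% in MWT, but 30.7% in CxH and 34.5% in MH. Scn8a made up 31.1% and 28.0% in CxWT and MWT, and 52.8% and 48.0% in CxH and MH. Scn1a thus led in the libraries labelled WT and Scn8a in those labelled H. Within the beta class Scn4b made up 39.5% in CxH against 26.9% in CxWT, and 33.5% in MH against 23.3% in MWT.

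**Figure D3:**
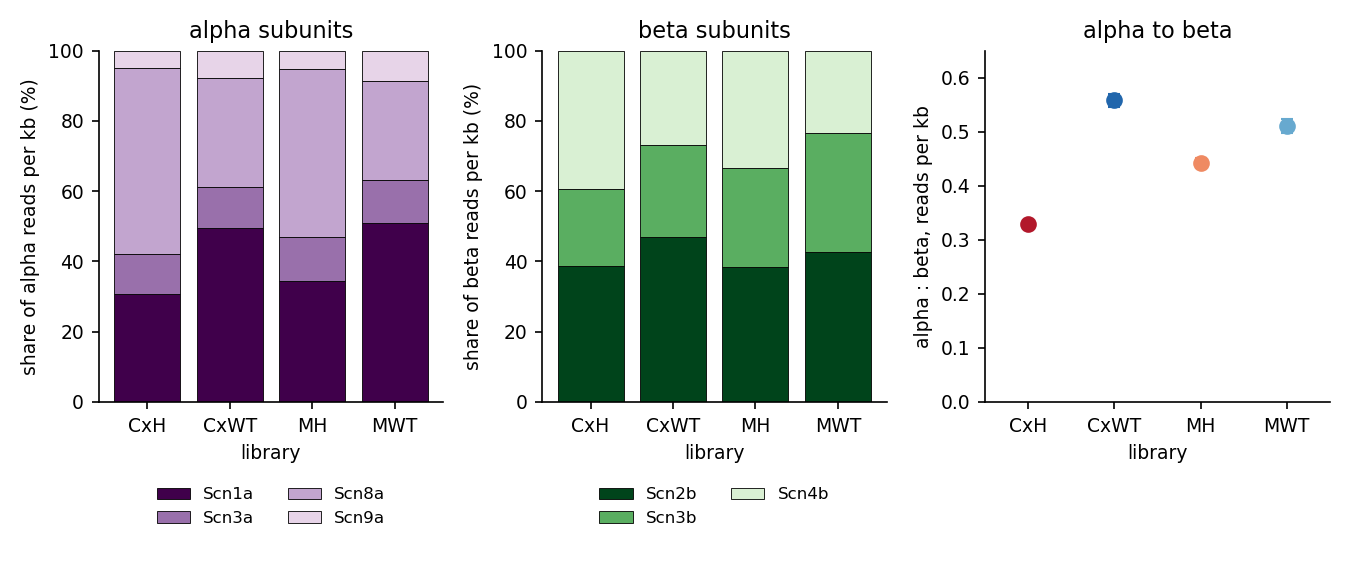
Share of each gene in the alpha (left) and beta (middle) reads per kilobase of transcript in each library, and the ratio of the alpha to the beta sum (right) with 95% intervals from counting. Scn8a takes the larger share of alpha in CxH and MH and Scn1a in CxWT and MWT, and the alpha to beta ratio runs from 0.329 in CxH to 0.558 in CxWT. Scn2a is left out, and neither the shares nor the ratio were corrected for GC and length.

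Ordered by level, in reads per kilobase of transcript per 1000000 aligned reads (RPKM), Scn2b led in CxWT, MH and MWT at 44.0, 38.9 and 38.0, while in CxH Scn4b at 45.7 (44.8 to 46.7) and Scn2b at 44.7 (43.7 to 45.7) had overlapping intervals. In CxWT the next places were taken by Scn1a at 25.9, Scn4b at 25.1 and Scn3b at 24.4, of which neighbours overlapped. The order below them was Scn8a at 16.2, Scn3a at 6.03 and Scn9a at 4.07. Scn3a and Scn9a were the lowest members in every library, and Scn9a was last in each, down to 1.89 in CxH. In MWT Scn1a at 23.2 stood above Scn4b at 20.8 and Scn8a at 12.8, whereas in MH it stood below both, at 15.5 against 33.9 and 21.5. The Scn8a entry of the annotation lacks part of the start of the gene, so its length, and with it its RPKM, is less certain. The merged exons of Scn1a hold 11079 bases against 8386 in its longest transcript, and those of Scn4b 4940, as in its longest transcript. In CxWT and MWT the place of Scn1a above Scn4b holds for the longest transcript only.

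Between libraries that differ in area label only, no member was called, in CxH vs. MH or in CxWT vs. MWT. By the area marker lists given above, the libraries of each of these pairs were alike. In CxH vs. MH 2.43% of genes were called up-regulated and 1.06% down-regulated, and in CxWT vs. MWT 5.43% and 2.11%. In CxH vs. MH the log2 ratios ran from -0.41 for Scn1a to 0.43 for Scn4b, and in CxWT vs. MWT from -0.32 for Scn3b to 0.35 for Scn8a. Scn1a was -0.41 ± 0.031 between the libraries labelled H and 0.16 ± 0.026 between those labelled WT. After the correction for GC and length these were -0.14 and 0.23. With so few genes called in these pairs, 0 of 7 members is near the share of all genes. CxH vs. MWT and MH vs. CxWT cross the area and genotype labels and share libraries with the other pairs. CxH vs. MWT gave Scn1a at -0.99, Scn9a at -1.06 and Scn4b at 1.14, all called. In this pair 15.6% of genes were called up-regulated and 15.1% down-regulated. MH vs. CxWT gave Scn1a at -0.74 and Scn9a at -0.83, both called, against 6.41% and 8.89%, and with TMM factors as scaling Scn1a stood at -0.63 in this pair and was not called.

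Transcript composition moved with these ratios. Across 10826 genes, the Spearman correlation of the log2 ratio with the GC content of the longest coding transcript was 0.46 in CxH vs. CxWT and 0.49 in MH vs. MWT, a description across genes, which share their libraries and are not independent replicates. The transcripts of Scn3a, Scn9a and Scn1a had 42.1%, 42.4% and 43.3% GC, low among all genes, while Scn3b had 48.6%, Scn8a 50.02%, Scn2b 50.7% and Scn4b 54.3%. In the bin from 42% to 44% GC the median log2 ratio of 843 genes was -0.38 in Cx and -0.34 in M, and in the bin from 54% to 56% that of 1102 genes was 0.11 and 0.15. After a correction of the ratios for GC and length, Scn1a stood at -0.87 in CxH vs. CxWT, Scn9a at -0.80 and Scn4b at 0.71, all still called, and the difference between the alpha and beta medians went from -0.84 to -0.60. In MH vs. MWT the same correction gave Scn8a 0.49, Scn9a -0.69 and Scn4b 0.36, so that no member was called, and the difference of the medians went from -0.33 to -0.13. In CxH vs. MWT Scn4b, at 0.73, was the only member called after the correction. The part of library preparation in the relation with GC was not tested.

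**Figure D4:**
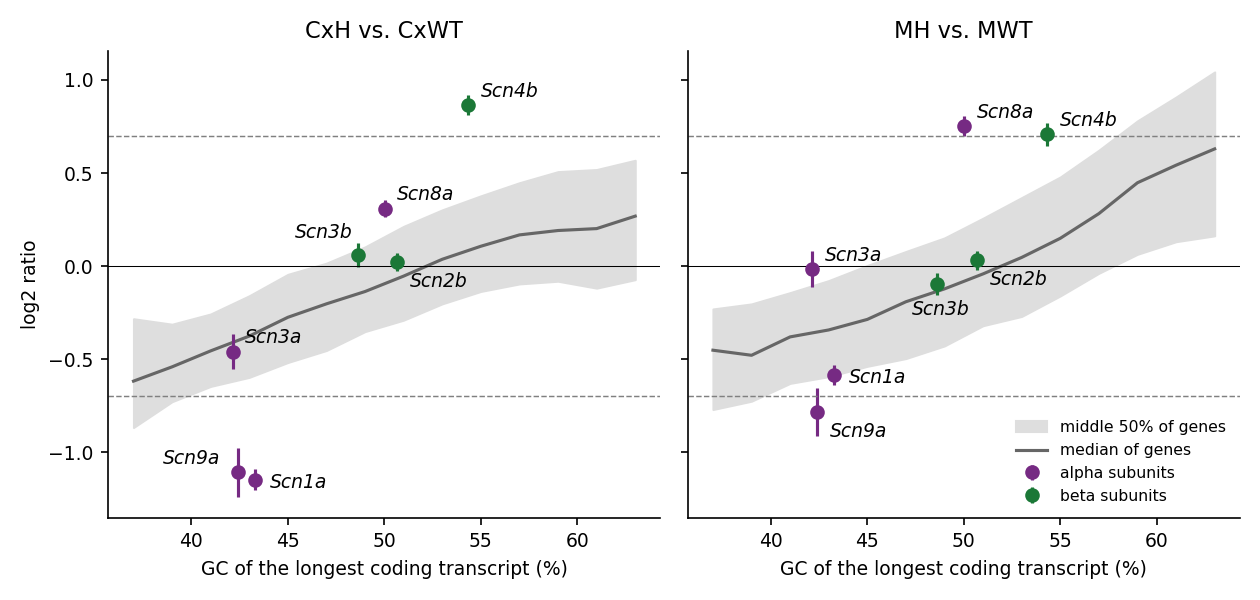
Log2 ratio against the GC content of the longest coding transcript in CxH vs. CxWT (left) and MH vs. MWT (right). The line is the median and the band the middle 50% of genes in bins of 2 percentage points, and points are the alpha and beta genes with bars for the 95% counting interval. Scn1a lies below the band in Cx and Scn9a in both panels, and Scn4b and Scn8a lie above it in both. Scn3a lies above it in M, and Scn2b and Scn3b lie near the median.

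Cell type markers moved as well. The summed RPM of 8 striatal medium spiny neuron markers, cells in which Scn4b is abundant, was 1192 in CxH against 466 in CxWT, and 1015 in MH against 445 in MWT, with 7 of 8 called up-regulated in each comparison. Scn4b had the same order of libraries, CxH, MH, CxWT and MWT from high to low, and so did the summed cortical excitatory markers given above. The striatum belonged to the M dissection, so the striatal markers were high in CxH and low in MWT against the area labels of these libraries, which the cortical and the thalamus, midbrain and hypothalamus markers fitted. The summed RPM of 7 inhibitory interneuron markers was 652, 917, 609 and 957, and was largely that of Gad1 and Gad2. Of the 7, 3 were called up-regulated and 1 down-regulated in CxH vs. CxWT, and 2 up-regulated and 3 down-regulated in MH vs. MWT, so the list had no common direction. Pvalb, which marks fast-spiking interneurons, had 29.8, 38.5, 22.2 and 50.7 RPM, and Gad2, which encodes an enzyme of GABA synthesis, 117, 274, 126 and 302. Sst and Vip, markers of other interneuron classes, and Lhx6 were higher in both libraries labelled H, with 91.5, 46.4, 67.6 and 34.3 RPM for Sst, 20.8, 6.51, 27.1 and 6.18 for Vip and 16.02, 9.73, 12.04 and 7.60 for Lhx6. The 7 oligodendrocyte markers summed to 4801, 9161, 4998 and 7287 RPM. Astrocyte (2939, 1968, 2435 and 2525), microglial (263, 168, 214 and 216) and endothelial (151, 112, 123 and 134) sums were highest in CxH and lowest in CxWT. Single members differed from these sums. Aqp4, Gja1 and Slco1a4 were lowest in CxH, and Tyrobp was highest in MWT. Of 6 astrocyte markers, 2 were called up-regulated and 1 down-regulated in CxH vs. CxWT, and 0 and 2 in MH vs. MWT. For 6 microglial markers these counts were 2 and 0, and 0 and 2. For 5 endothelial markers they were 1 and 0, and 0 and 0. The part of any of these cell types in the channel ratios was not tested.

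The promoters of the members called in CxH vs. CxWT are given because Scn1a and Scn9a were low in the same libraries and Scn4b was high in them. They are RefSeq windows of 300 bases, most of them upstream of the start of the gene and the last 50 downstream of it (GRCm38.p6), with CpG dinucleotides in capitals, read on the minus strand at chr2:66440788-66441087 for Scn1a and chr2:66634913-66635212 for Scn9a and on the plus strand at chr9:45138374-45138673 for Scn4b.
Scn1a: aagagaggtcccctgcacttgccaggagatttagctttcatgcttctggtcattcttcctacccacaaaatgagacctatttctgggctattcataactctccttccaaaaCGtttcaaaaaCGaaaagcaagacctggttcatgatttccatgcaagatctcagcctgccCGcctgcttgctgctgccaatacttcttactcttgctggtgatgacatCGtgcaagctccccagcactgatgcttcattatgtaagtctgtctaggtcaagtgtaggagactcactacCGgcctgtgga
Scn9a: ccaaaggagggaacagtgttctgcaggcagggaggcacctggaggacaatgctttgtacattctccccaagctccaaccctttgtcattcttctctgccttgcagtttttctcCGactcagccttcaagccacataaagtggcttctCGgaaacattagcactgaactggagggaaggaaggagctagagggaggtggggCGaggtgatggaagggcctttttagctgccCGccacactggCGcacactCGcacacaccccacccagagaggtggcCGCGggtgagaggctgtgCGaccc
Scn4b: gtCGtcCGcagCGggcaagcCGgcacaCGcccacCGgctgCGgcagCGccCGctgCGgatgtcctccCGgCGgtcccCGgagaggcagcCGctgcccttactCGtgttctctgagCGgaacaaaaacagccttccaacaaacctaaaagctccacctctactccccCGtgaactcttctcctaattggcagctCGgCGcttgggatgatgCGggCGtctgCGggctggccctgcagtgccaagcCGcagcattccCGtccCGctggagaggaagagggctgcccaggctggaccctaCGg
The Scn1a window had 47.3% GC and 5 CpG, the Scn9a window 57.3% and 9, and the Scn4b window 66.3% and 26. Over 32851 windows of this length the medians were 52.7% and 7, and fewer CpG than in Scn4b were found in 83.1% of windows. Of the remaining members, Scn2b had 38.3% GC and 2 CpG, and the Scn8a windows 70.0% and 38 and 53.3% and 12. In all, 5 members had a window.

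The genes whose levels over the 4 libraries were most like those of each member were found by the distance between log2 RPM centred on the mean of the gene, among the 11010 genes that had 100 reads or more in each library. For Scn1a they were Sox2ot (distance 0.033), Grin3a (0.057) and Tenm1 (0.074), and for Scn9a Ptpn4 (0.033), St8sia1 (0.049) and Ttbk2 (0.066). Between Scn1a and Scn9a the distance was 0.14, the smallest between members, and between Scn9a and Scn4b it was 1.81, the largest. Ptpn4, for example, had 22.7 and 49.9 RPM in CxH and CxWT and 27.7 and 48.8 in MH and MWT, the same order of libraries as Scn9a. For Scn4b the nearest genes were Ctdnep1 (0.024), B4galnt1 (0.043) and Mllt1 (0.064), for Scn8a Cd276 (0.029), Fbf1 (0.030) and Calcoco1 (0.033), and for Scn3a Tcp11l2 (0.022), 2210408I21Rik (0.030) and Faxc (0.032). For Scn2b they were Elof1 (0.019), Pars2 (0.020) and Retreg2 (0.027), and for Scn3b Sub1 (0.031), Ccdc148 (0.038) and Pan3 (0.039). With 4 libraries such closeness is common. Within a distance of 0.2 there were 73 genes of Scn1a, 122 of Scn9a, 103 of Scn4b and 867 of Scn2b.

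Scn2a, which lies between Scn3a and Scn1a and encodes the channel of excitatory axons, is not a member. It had 5928 reads in CxH against 4809 in CxWT and 6538 in MH against 4180 in MWT, with ratios of 0.11 ± 0.028 in Cx and 0.28 ± 0.029 in M, neither called. Among the alpha members the direction of the called genes did not follow the subunit class, since Scn8a was high and Scn1a and Scn9a were low in the libraries labelled H.

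Genes that work with the channels were taken from 4 lists. Of 4 fibroblast growth factor homologous factors, intracellular proteins that bind the tail of the alpha subunit and tune its inactivation, Fgf12 was down-regulated in CxH vs. CxWT (-0.77 ± 0.041) and Fgf13 up-regulated in MH vs. MWT (0.75 ± 0.045), with list medians of -0.26 and 0.25. Fgf11 and Fgf14 were not called. Of 15 genes of the axon initial segment and node of Ranvier, 0 were up-regulated and 2 down-regulated in CxH vs. CxWT, and 3 up-regulated and 0 down-regulated in MH vs. MWT, with medians of -0.17 and 0.0049. The calls in Cx were Cntnap2 (-0.87 ± 0.036) and Cntn2 (-0.71 ± 0.024), adhesion proteins of the juxtaparanode beside the node. In M they were Trim46 (1.20 ± 0.051), Sptbn4 (1.03 ± 0.040) and Kcnq3 (0.92 ± 0.079). These calls are given without the correction for GC and length, as are those of Fgf12 and Fgf13. After it Sptbn4, the spectrin of initial segments and nodes, stood at -0.11. Ank3, which encodes the ankyrin that anchors sodium channels there, was called in neither comparison.

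Of 14 genes of sodium channel binding and turnover in the table, 1 was up-regulated and 1 down-regulated in CxH vs. CxWT, and 3 up-regulated and 0 down-regulated in MH vs. MWT, with medians of 0.21 and 0.25. Nedd4l, a ubiquitin ligase that removes sodium channels from the membrane, was called in both, with 73.9 RPM in CxH against 42.8 in CxWT and 68.8 in MH against 40.6 in MWT. Its log2 ratios were 0.79 ± 0.047 and 0.76 ± 0.051, and both held after the correction, at 0.92 and 0.71. Nalcn, the sodium leak channel, was down-regulated in Cx (-0.83 ± 0.044). Prrt2 (1.36 ± 0.031) and Calm3 (0.87 ± 0.014), a calmodulin gene, were up-regulated in M. Unlike those of Nedd4l, these calls are given without the correction.

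Of 7 genes of the sodium pump, which restores the sodium gradient that the channels use, 1 was up-regulated and 0 down-regulated in each comparison, with medians of -0.090 in Cx and -0.44 in M. The same gene, Fxyd7, a brain regulator of the pump, was called in both, with 32.5 RPM in CxH against 18.2 in CxWT and 25.5 in MH against 12.6 in MWT, and ratios of 0.84 ± 0.071 and 1.02 ± 0.089. The counts over the lists stand against the same background of all genes as the members. These counts and the Fxyd7 ratios are given without the correction for GC and length.

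**Figure D5:**
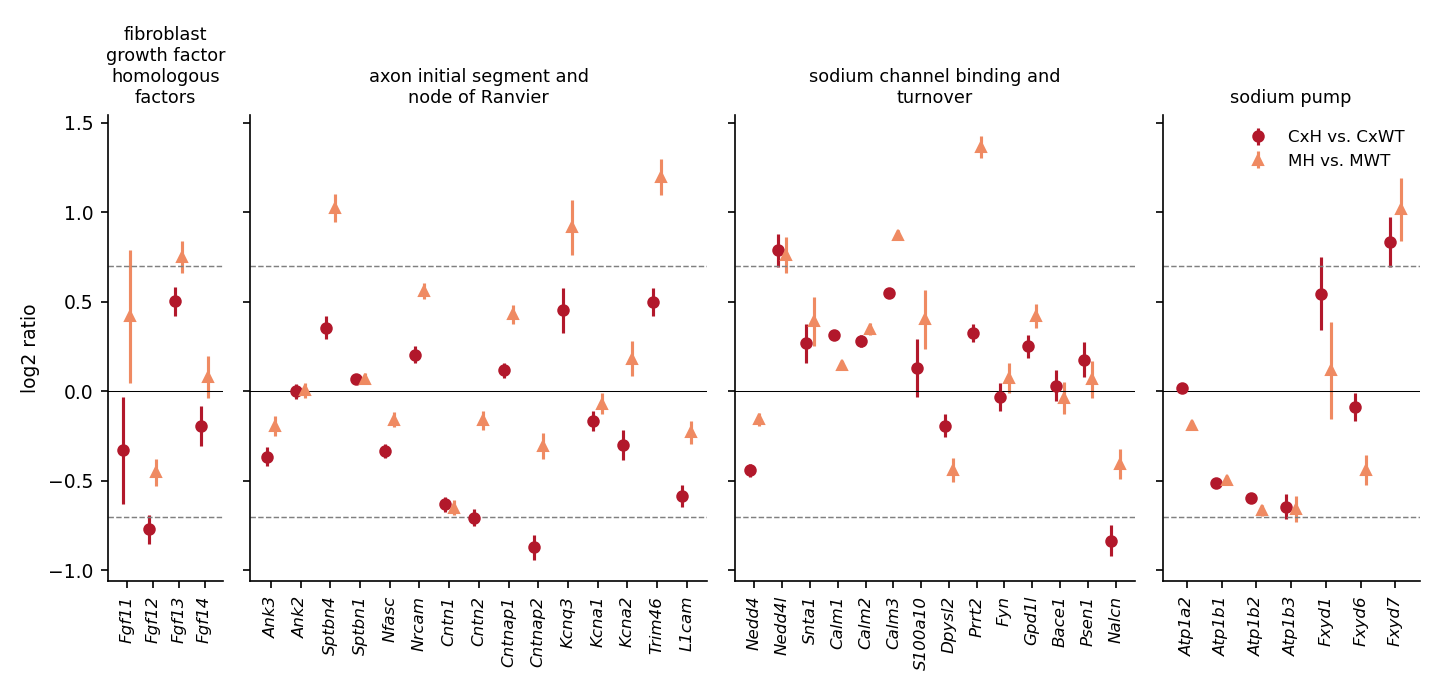
Log2 ratio in CxH vs. CxWT (circles) and MH vs. MWT (triangles) of the genes from the 4 lists of channel partners, with bars for the 95% counting interval and dashed lines at the threshold of 0.7. Nedd4l and Fxyd7 lie above 0.7 in both, and no gene lies below -0.7 in M.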

How the data were processed

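RNA of each condition was pooled and sequenced on a SOLiD instrument. The authors aligned reads to mm9 with PASS, kept those on a single gene and genes covered over most of their length, and deposited raw counts of reads per gene; the annotation behind them is not given in the sources used here. The channel members, partner lists and marker lists were chosen with earlier results of these data known.

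Counts were scaled by the aligned reads of each library to RPM. All 12700 genes were tested in 6 pairs of libraries by a Poisson likelihood ratio test of their reads, a count of 0 being set to 1 for ratios. Positions, lengths and GC came from GENCODE vM1 (12559 and 12367 genes matched), promoters from RefSeq. The correction fitted polynomials of degree 3 in GC and log2 length over the 10826 genes that had 100 reads or more in each library. The genes named were the members, Ids, further Scn genes, list genes called alike in Cx and M (up to 3 per list and direction) and the 3 nearest genes of each member; further list and marker genes were picked after their values were seen. Some Scn and list genes, and the planned alpha to beta ratio over every Scn gene, are not reported here, and the list counts leave those genes out. The steps were tested on simulated data. The alternatives were 3 scalings, a read filter, a stricter threshold, adjusted p-values, an assumed variation between pools, an added 0.5 and other lengths. edgeR 4.0.16 and DESeq2 1.42.0 ran under R 4.3.3, and the rest under Python 3.11.15 with scipy 1.17.1, pandas 2.3.3 and numpy 2.4.6. Depth sets counting error only, and nothing here measures variation between pools.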

Additional observations from a re-analysis of the deposited data

Results flagged for a closer look

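Ids, the disrupted gene, was lower in the library labelled H in Cx (log2 ratio -1.39 ± 0.024) and higher in the library labelled H in M (1.24 ± 0.025). The Cx ratio minus the M ratio was -2.63 ± 0.034, the error being that of counting. With 1 library per condition this difference was not tested. No sodium channel member was past the test in opposite directions in the 2 comparisons.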

How the results depend on the processing

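The correction for GC and length moved the difference between the alpha and beta medians to -0.60 in CxH vs. CxWT and -0.13 in MH vs. MWT. It moved to -0.25 in CxH vs. MH, 0.16 in CxWT vs. MWT and -0.45 in CxH vs. MWT. In MH vs. CxWT it hardly changed, from -0.66 to -0.62. In MH vs. MWT, where 3 members were called, 0 were called after this correction, at a log2 threshold of 1 or where the biological coefficient of variation was assumed to be 0.2, and 1 with scaling by column totals. In CxH vs. MWT 1 of 3 calls was left after the correction. In MH vs. CxWT, of 2 calls, 1 was left with TMM factors, DESeq2 size factors or a coefficient of 0.2, and 0 at a log2 threshold of 1. The 3 calls in CxH vs. CxWT held under every scaling, the correction and both coefficients, and 2 held at a threshold of 1. Over all genes the correction gave 1019 up- and 1111 down-regulated calls in CxH vs. CxWT, against 1201 and 1457 without it, and 1031 and 1239 in MH vs. MWT, against 1556 and 1614. At a log2 threshold of 1 these were 691 and 710, and 869 and 773. Without division by length the alpha to beta ratio was 0.695 in CxH against 1.13 in CxWT and 0.930 in MH against 1.03 in MWT, and with the length of the merged exons 0.293, 0.472, 0.390 and 0.430. The read filter cannot change a member ratio, and adding 0.5 changed no call or direction. Under the 3 scalings, which shift all genes of a pair alike, 115 member ratios kept direction and call, 4 lost a call, 1 gained one and 6 changed sign without being called. Under the correction these were 33 kept, 5 lost and 4 changed in sign, among them Scn3a in CxH vs. MWT, from -0.36 to 0.041. Scaling shifted all log2 ratios by at most 0.11, in MH vs. CxWT and CxH vs. MWT. The causes were not tested. No paired analysis was possible because each condition is 1 library, and for the same reason no library could be left out. The depth leaves little counting error for the members, but nothing here limits the variation between pools.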
